A study of Mus musculus with 6 samples.

Results

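The proteasome genes were the protein-coding genes of GENCODE mouse release M21 whose symbols begin with Psm, a letter from a to g and a digit, 50 of 21911 protein-coding genes in all. They lie on 16 chromosomes, 10 of them on chromosome 11. The symbol rule also takes in Psmc3ip, a meiotic recombination factor that is not a subunit, and it passes over subunits with other names such as Adrm1 and Sem1, which are described with the other genes of the pathway.

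H3K4me3, trimethylation of lysine 4 of histone H3, marks the promoters of active genes. It was mapped by ChIP-Seq of chromatin digested with micrococcal nuclease in STHdh cells, a conditionally immortalised line of mouse striatal progenitor cells whose strain is labelled C57BL/6. There were 6 peak lists, 1 per condition, and every culture was kept in serum-free medium for 24 hours. Q7SST was the vehicle control of STHdhQ7 cells, with wild-type huntingtin, and Q111SST was the vehicle control of STHdhQ111 cells, homozygous for a knocked-in huntingtin with an expanded glutamine tract. The Cyproheptadine, Loxapine, DKI and Meclizine lists came from STHdhQ111 cells given cyproheptadine, loxapine, diacylglycerol kinase inhibitor II or meclizine at 10 uM. Each genotype was a single cell line, so that genotype and line cannot be told apart. Since a condition had only 1 list, the spread between replicates is unknown, no test was made, and every difference describes these lists.

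The lists held 30758 to 45564 peaks with median widths from 766 to 922 bp, and the read depth behind them is unknown. Of the markers for the cell type, 3 of 6 neural progenitor genes (Vim, Sox9 and Fabp7) had a promoter peak in all 6 lists, as did the striatal progenitor genes Dlx2 and Dlx5. Gsx2 and Dlx1, also striatal progenitor genes, had one in Q7SST and in none of the STHdhQ111 lists, the Gsx2 peak standing at percentile 2.76 with a width of 197 bp. The neural progenitor genes Sox2 and Id4 had one in all 5 STHdhQ111 lists and none in Q7SST. The sixth, Nes, stood at percentile 90.7 in Q7SST and 41.9 in Q111SST and had none with Cyproheptadine. No gene of 6 for mature striatal neurons was marked in all 6 lists. Penk was marked in 5 and Ppp1r1b in 4, Adora2a and Tac1 only in Q7SST, and Drd1 and Drd2 in none. Penk stood at percentile 63.5 in Q7SST and 24.2 in Q111SST. None of 7 blood, liver and muscle genes was marked in any list.

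The proteasome degrades proteins that carry ubiquitin chains, and it does so in every cell type. Its core particle stacks rings of alpha subunits, which gate the entrance, on rings of beta subunits, of which Psmb5, Psmb6 and Psmb7 cut the substrate. Interferon induces Psmb8, Psmb9 and Psmb10, which replace these catalytic subunits in the immunoproteasome. The regulatory particle caps the core with a ring of ATPases that unfold the substrate and a set of non-ATPase subunits that bind and remove ubiquitin, and dedicated chaperones assemble both parts. Impaired protein clearance has long been studied in Huntington's disease, in which mutant huntingtin forms aggregates.

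Promoter sequences of 7 genes are printed here, some with the mark and some without it, and they do not span all the proteasome promoters. They are RefSeq promoters on GRCm38.p6, with 250 bases before the start and 50 after it, written 5′ to 3′ on the strand of the gene. Capitals mark matches to the motifs CCAAT, bound by the factor NF-Y, TATAAA, the TATA box, TGACNNNGC, the core of the antioxidant response element, GAAANNGAA, the core of the interferon-stimulated response element, CCGGAAG, the core of sites for ETS factors, and GCGCATGC, the site of the factor NRF1. They were searched on both strands. The immune catalytic subunits and the gene with the strongest mark, Psmd5, come first. Psmb5, the constitutive counterpart of Psmb8, and Psmb11 and Psme2b, which had no peak, were added after their values were seen. The regions are chr8:105938343-105938642, minus strand, for Psmb10, chr17:34197945-34198244, plus strand, for Psmb8, chr17:34187281-34187580, minus strand, for Psmb9 and chr2:34870913-34871212, minus strand, for Psmd5. They are chr14:54617946-54618245, minus strand, for Psmb5, chr14:54625060-54625359, plus strand, for Psmb11 and chr11:48946361-48946660, minus strand, for Psme2b.
Psmb10: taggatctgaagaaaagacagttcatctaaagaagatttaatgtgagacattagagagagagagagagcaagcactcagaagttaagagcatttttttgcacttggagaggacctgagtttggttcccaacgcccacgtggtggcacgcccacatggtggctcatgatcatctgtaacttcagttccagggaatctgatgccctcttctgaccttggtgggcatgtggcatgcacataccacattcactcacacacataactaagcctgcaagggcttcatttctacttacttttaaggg
Psmb8: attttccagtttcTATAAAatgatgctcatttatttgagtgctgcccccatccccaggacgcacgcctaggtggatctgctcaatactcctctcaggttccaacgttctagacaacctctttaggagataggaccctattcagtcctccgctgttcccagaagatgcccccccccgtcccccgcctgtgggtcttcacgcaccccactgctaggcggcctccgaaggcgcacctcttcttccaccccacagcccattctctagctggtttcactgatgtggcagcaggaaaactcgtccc
Psmb9: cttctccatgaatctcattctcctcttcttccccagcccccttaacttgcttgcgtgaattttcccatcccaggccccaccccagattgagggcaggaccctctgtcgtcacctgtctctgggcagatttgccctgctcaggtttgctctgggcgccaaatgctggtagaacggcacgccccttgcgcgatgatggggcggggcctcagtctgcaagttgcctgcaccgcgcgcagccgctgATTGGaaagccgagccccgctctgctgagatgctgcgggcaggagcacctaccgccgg
Psmd5: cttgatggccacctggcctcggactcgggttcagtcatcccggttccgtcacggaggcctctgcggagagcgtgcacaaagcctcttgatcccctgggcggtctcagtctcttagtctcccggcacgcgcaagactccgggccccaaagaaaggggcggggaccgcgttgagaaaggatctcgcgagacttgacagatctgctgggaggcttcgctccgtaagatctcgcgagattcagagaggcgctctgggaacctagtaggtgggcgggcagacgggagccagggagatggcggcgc
Psmb5: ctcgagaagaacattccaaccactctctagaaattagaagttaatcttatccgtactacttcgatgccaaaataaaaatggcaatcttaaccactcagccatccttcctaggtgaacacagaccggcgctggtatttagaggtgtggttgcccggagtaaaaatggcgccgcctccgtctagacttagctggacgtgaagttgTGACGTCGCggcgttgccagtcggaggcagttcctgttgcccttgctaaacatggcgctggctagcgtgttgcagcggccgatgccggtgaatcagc
Psmb11: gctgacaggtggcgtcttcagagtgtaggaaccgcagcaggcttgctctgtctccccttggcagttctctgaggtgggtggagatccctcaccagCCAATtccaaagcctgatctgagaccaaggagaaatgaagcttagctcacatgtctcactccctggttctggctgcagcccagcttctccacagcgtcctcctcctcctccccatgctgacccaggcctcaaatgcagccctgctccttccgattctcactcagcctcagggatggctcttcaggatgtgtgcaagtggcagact
Psme2b: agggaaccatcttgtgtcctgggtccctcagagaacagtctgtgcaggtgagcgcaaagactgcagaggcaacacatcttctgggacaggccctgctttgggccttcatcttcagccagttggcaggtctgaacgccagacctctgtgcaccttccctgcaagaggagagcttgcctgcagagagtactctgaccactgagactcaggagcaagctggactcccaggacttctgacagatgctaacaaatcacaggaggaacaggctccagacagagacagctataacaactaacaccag
The Psmd5 window held 26 CpG dinucleotides and the Psmb5 window 20. Psmb9 held 17 and Psmb8 11. Psmb10 held 3, close to the 4 in Psmb11 and the 2 in Psme2b.

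A promoter counted as marked if any annotated start of the gene had a peak at most 1 kb away. Of the 50 proteasome genes, 47 were marked in every list and the other 3 in none, so that no gene differed in this call between lists. Over all protein-coding genes, 52.3% were marked in all 6 lists. The percentage marked was 58.6 in Q7SST and 57.1 in Q111SST, and 54.1, 56.9, 54.6 and 57.3 with Cyproheptadine, Loxapine, DKI and Meclizine. Relative to Q111SST, 0 of the 47 marked proteasome genes lost the mark in any list, and 0 of the 3 unmarked ones gained it. Over all genes, in Q7SST 3.58% lost it and 8.19% gained it. The shares that lost it with Cyproheptadine, Loxapine, DKI and Meclizine were 5.72%, 2.08%, 4.93% and 1.33%, and the shares that gained it were 0.660%, 2.17%, 0.596% and 2.21%.

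The unmarked genes were Psma8, the testis counterpart of the alpha subunit Psma7, Psmb11, the catalytic subunit of cortical thymus epithelium, and Psme2b, a copy of the activator gene Psme2. The nearest peak to a Psma8 start was 22677 to 23993 bp away in the 6 lists. It was 5755 to 6808 bp away for Psmb11, whose start lies 7288 bp from that of the marked gene Psmb5, and 11725 to 27990 bp away for Psme2b. How reads that match both Psme2 and this copy were placed was not tested.

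Strength was the percentile of a gene's highest-scoring promoter peak among all peaks of the same list. Every one of the 47 marked proteasome genes stood above the 50th percentile in every list, as did 82.5% of the 11455 genes marked in all 6 lists. Their median strength over the lists was 86.1, next to 82.1 for those 11455 genes. By list the median was 86.5 in Q7SST and 88.4 in Q111SST, and 84.6, 88.5, 80.9 and 85.2 with Cyproheptadine, Loxapine, DKI and Meclizine. Among the promoters marked in all lists instead of among all peaks, the proteasome genes had medians between 57.6 with DKI and 62.8 in Q111SST. Promoters in general stand high among all peaks.

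**Figure D1:**
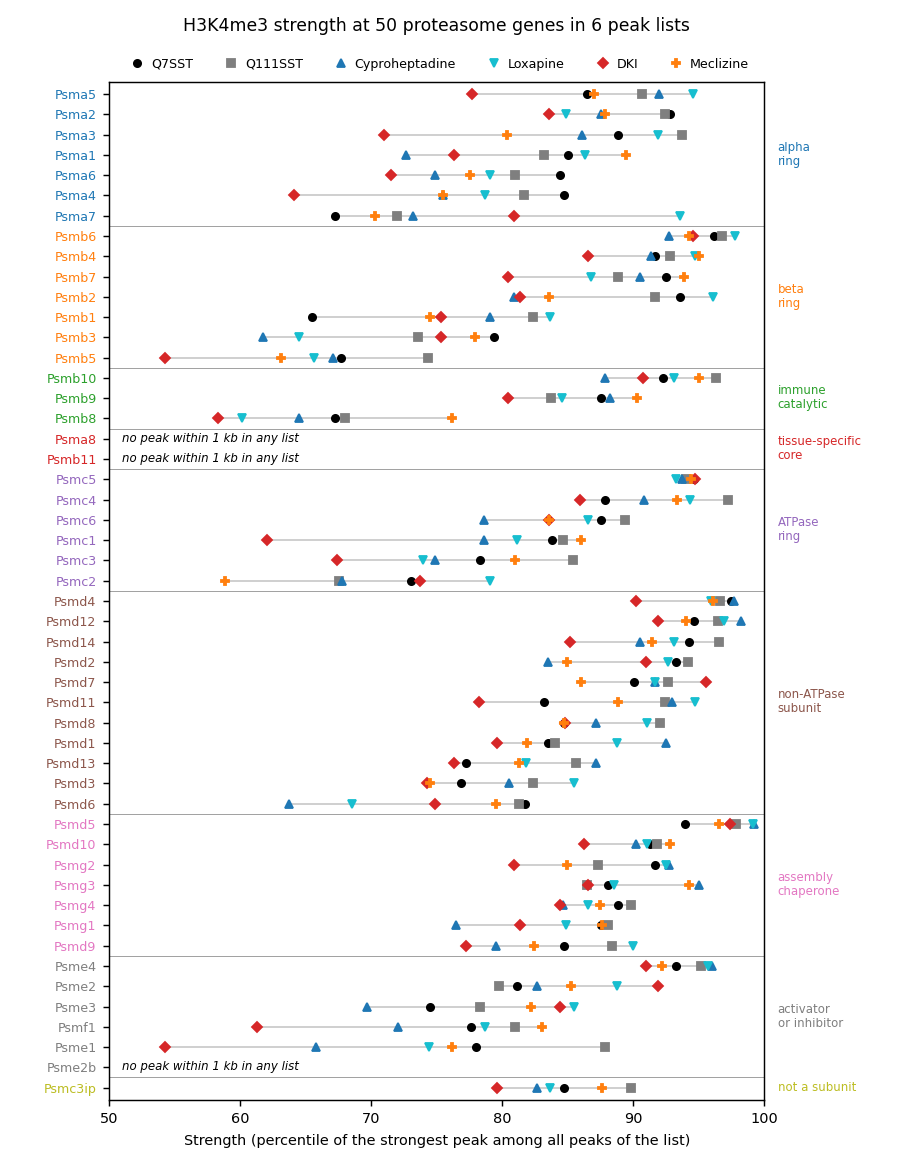
Strength of the H3K4me3 peak at each proteasome gene, grouped by role, as the percentile (x axis) of its strongest peak within 1 kb among all peaks of the list. Each symbol is 1 of the 6 lists and the grey line spans them. All 47 marked genes stood above 50, Psmc5 varied least and Psme1 most, and 3 genes had no peak.

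The groups of subunits overlapped widely. The 14 constitutive core genes had a median strength of 85.8 over the lists and ran from 66.4 to 95.4. The 17 genes of the regulatory particle had a median of 86.0 and ran from 70.4 to 96.3. By list these medians were less alike. The regulatory particle had the higher median in every STHdhQ111 list, with 92.04 against 86.03 in Q111SST and 84.97 against 81.95 with Meclizine. In Q7SST the regulatory particle had the lower median, with 84.7 against 85.8. Within the core, the 7 alpha ring genes had a median of 84.1 and the 7 beta ring genes of 87.6. Within the regulatory particle, the 6 ATPases had a median of 83.8 and the 11 non-ATPase genes of 90.6. By list the order was the reverse in Q7SST, with 85.7 and 84.7, and nearly level with Meclizine, with 84.8 and 85.0. In the remaining lists the non-ATPase genes had the higher median. The 7 assembly chaperones had a median of 88.3 and none lay below 83.6. Over the lists the 5 marked activators and inhibitors had the lowest median, 80.2, and Psmc3ip stood at 84.2. The activators and inhibitors were also lowest in Q7SST, in Q111SST and with Cyproheptadine. With DKI they stood at 84.4, above the alpha ring at 76.3, and with Loxapine and Meclizine they were not lowest either.

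Psmd5, a chaperone that assembles the ATPase ring, had the highest median at 97.6. Its strength was 93.9 in Q7SST and 97.8 in Q111SST, and 99.2, 99.1, 97.4 and 96.5 with Cyproheptadine, Loxapine, DKI and Meclizine. Next came Psmd4, a ubiquitin receptor, at 96.3, Psmd12, a lid subunit, at 95.5, and Psmb6, the caspase-like catalytic subunit, at 95.4. Psmc5, an ATPase, had a median of 94.2 and the steadiest strength, with 1.44 points between its lowest and highest list. Psmc2, another ATPase, at 70.4, Psmb5 at 66.4 and Psmb8 at 65.9 were the lowest. In the order of the 47 medians, all 46 pairs of neighbours had ranges over the lists that overlapped. Neighbouring medians lay close together, so this overlap says little of genes farther apart. Psmd5 did not fall below 93.9 in any list, and Psmb8 did not exceed 76.2. The median range of a proteasome gene was 11.8 points and that of all genes marked in the 6 lists 14.5 points.

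Each catalytic subunit can be set beside its immune counterpart, and the pairs did not share an order. Psmb5, the chymotrypsin-like subunit, stood at 67.7 in Q7SST and 74.3 in Q111SST, and 67.1, 65.6, 54.3 and 63.1 with Cyproheptadine, Loxapine, DKI and Meclizine. Psmb8, which replaces it, stood at 67.2, 68.0, 64.5, 60.2, 58.3 and 76.2 in the same order. Psmb8 was therefore the lower of the pair in 4 lists and the higher with DKI and Meclizine. Psmb9 stood at 87.6, 83.7, 88.2, 84.6, 80.5 and 90.3, below Psmb6 in all 6 lists, by a median of 10.8 points. Psmb10 stood at 92.3, 96.3, 87.8, 93.1, 90.7 and 94.996, above Psmb7, the trypsin-like subunit, in 4 lists and below it in 2. All 3 immune genes thus carried the mark in every list, in cells for which no interferon treatment is labelled, and their promoters spanned nearly the whole range of the proteasome genes, from 65.9 for Psmb8 to 92.7 for Psmb10.

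The comparison of Q7SST with Q111SST asks how the wild-type line differs from the mutant line. A gene was called higher or lower when its strength differed by at least 10 percentile points. Of the 47 genes marked in both lists, 0 were higher and 1 lower in Q7SST, while 8.68% of all genes were higher and 12.9% lower. The median difference, Q7SST minus Q111SST, was -1.15 points for the proteasome genes and -1.05 points for all genes. The lower gene was Psmb1, a structural beta subunit, with 65.5 in Q7SST and 82.3 in Q111SST, and the next was Psme1 at -9.88 points. With strength ranked only among the promoters marked in all lists, 7 proteasome genes were higher and 11 lower, beside 21.3% and 21.04% of all genes. With every list cut to its strongest 30758 peaks 0 were higher and 4 lower, beside 11.975% and 14.4%.

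The 4 compound lists were each compared with the same Q111SST list, and so share its error. With Cyproheptadine 0 genes were higher and 9 lower, against 3.46% and 26.1% of all genes. The 9 were Psma1, Psmb2, Psmb3, Psmc3, Psmc6, Psmd2, Psmd6, Psme1 and Psmg1. The median difference from Q111SST was -4.90 points for the proteasome genes and -3.79 points for all genes. Ranked among the promoters marked in all lists, 9 were higher and 14 lower, against 21.6% and 22.3%. The difference of Psmb3 was then -5.28 points. With all lists cut to the 30758 peaks of the shortest, 2 genes were higher and 4 lower, against 9.95% and 17.3% of all genes. Of the 9 genes, 5 then fell short of 10 points. They were Psma1, Psmb2, Psmb3, Psmc3 and Psmc6, with differences from -9.92 to -7.25 points.

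With DKI 1 gene was higher and 14 lower, against 3.51% and 39.1% of all genes. The higher gene was Psme2. The lower genes were Psma3, Psma4, Psma5, Psmb2, Psmb5, Psmc1, Psmc3, Psmc4, Psmd9, Psmd11, Psmd14, Psme1, Psmf1 and the non-subunit Psmc3ip. Psmd11 had a peak within 1 kb of its start with DKI but none over it. The median difference was -6.76 points for the proteasome genes and -6.68 points for all genes, so that the list as a whole differed by about as much. The DKI list was the shortest, with 30758 peaks, and with all lists at that length 5 genes were higher and 11 lower, against 11.05% and 21.7% of all genes. Psmb2, Psmd9 and Psmc3ip then fell short of 10 points. DKI was the lowest of the 6 lists for 28 of the 47 genes and for 45.2% of all genes marked in the 6 lists. Ranked among promoters, 7 were higher and 15 lower, against 23.2% and 24.9%, and Psmb5 fell short at -9.32 points.

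With Loxapine 2 genes were higher, Psma7 and Psmc2, and 3 lower, Psmc3, Psmd6 and Psme1. The call of Psmc2 depended on how peaks were assigned, and its difference turned from 11.5 to -3.27 points with a 5 kb window and to -3.24 points with peaks within 1 kb merged. Of all genes 6.81% were higher and 9.59% lower. The Loxapine list was the longest, with 45564 peaks, and with all lists at 30758 peaks 2 were higher and 8 lower, against 6.62% and 22.5% of all genes. With Meclizine 0 were higher and 3 lower, Psma3, Psmb5 and Psme1, against 4.07% and 10.1% of all genes, and at 30758 peaks 2 were higher and 4 lower, against 6.47% and 11.5%. Under a threshold at the pooled median score 8 were higher and 6 lower with Meclizine, against 18.2% and 10.8%. The median differences were -0.94 points with Loxapine and -2.43 points with Meclizine, next to -0.39 and -1.56 points for all genes. Ranked among promoters, 8 were higher and 12 lower with Loxapine, against 19.2% and 20.1%, and 9 were higher and 14 lower with Meclizine, against 16.1% and 16.1%. Among all genes whose Q111SST strength lay in the range of the proteasome genes, from 67.6 to 97.8, 2.99% were higher and 12.3% lower in Q7SST, 2.34% and 23.5% with Cyproheptadine, 4.31% and 6.84% with Loxapine, 2.64% and 37.6% with DKI, and 1.46% and 7.93% with Meclizine.

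**Figure D2:**
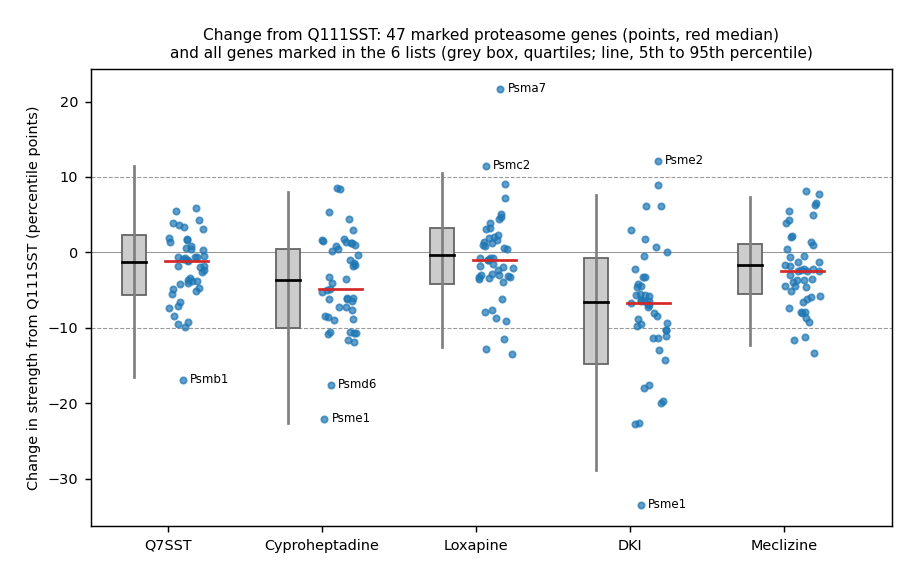
Difference in strength from Q111SST (y axis, percentile points) for the 5 other lists. Points are the 47 marked proteasome genes with a red line at their median, grey boxes are the quartiles of the 11455 genes marked in all 6 lists with lines from the 5th to the 95th percentile, and dashed lines mark 10 points. The medians of the proteasome genes lay within the grey boxes. Psme1 with DKI was the lowest point and Psma7 with Loxapine the highest.

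Of the 47 genes, 26 were lower than Q111SST in none of the 5 other lists, 15 in 1 list, 4 in 2 lists, Psmc3 in 3 lists and Psme1 in 4. Of all genes marked in the 6 lists 49.1% were lower in none, 24.5% in 1, 14.7% in 2, 7.77% in 3 and 3.22% in 4, and the 5 comparisons share the Q111SST list. These tallies rest on lists of unequal length. With lists of equal size Psmc3 with Cyproheptadine fell short of the cut, at -8.37 points, while Psme1 kept its 4 calls. Psme1 and Psme2 encode the alpha and beta subunits of an activator ring that opens the core without ATP and is induced by interferon. Psme1 stood at 77.96 in Q7SST and 87.8 in Q111SST, and 65.8, 74.4, 54.3 and 76.2 with Cyproheptadine, Loxapine, DKI and Meclizine. Q111SST was the highest list and DKI the lowest, and the range of 33.5 points was the widest of the 47. Its peak had a width of 1155 bp in Q111SST and 1101 bp with DKI.

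Psme2 stood at 81.1, 79.7, 82.6, 88.7, 91.9 and 85.2 in the same order. Q111SST was its lowest list and DKI its highest, the reverse of its neighbour. The reference starts of Psme1 and Psme2 lie 12727 bp apart on chromosome 14 and had separate peaks in every list. The difference, Psme2 minus Psme1, was 37.6 points with DKI and -8.11 points in Q111SST. Of the 11898 genes marked in both lists, 2.95% were as low as Psme1 or lower relative to Q111SST with DKI, and 2.54% were as high as Psme2 or higher. The order of the lists for these genes was the same at their ends, with DKI at the bottom for Psme1 and at the top for Psme2, when strength was ranked among promoters, where Psme1 stood at 61.2 in Q111SST and 16.98 with DKI and Psme2 at 38.3 and 81.8.

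Psmc3, an ATPase, stood at 78.3 in Q7SST and 85.4 in Q111SST, and 74.9, 74.0, 67.4 and 80.9 with Cyproheptadine, Loxapine, DKI and Meclizine. Psmc1, another ATPase, stood at 62.0 with DKI and between 78.6 and 86.0 in the other lists. Psma3, an alpha subunit, stood at 71.0 with DKI and between 80.3 and 93.7 elsewhere. With a 5 kb window Psma3 stood at 90.5 with DKI, 92.8 with Meclizine and 93.7 in Q111SST, which ended both of its lower calls, and with a peak over the start it was marked with Meclizine only. The differences between DKI and Q111SST were -17.98, -22.6 and -22.7 points for Psmc3, Psmc1 and Psma3, and 11.2% to 18.8% of all genes were as low or lower, next to 2.95% for Psme1.

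Some genes had peaks of different shape in different lists. Of the 47 genes, 43 had a single promoter peak in all 6 lists, as did 82.5% of the genes marked in all lists. Psma6, Psma7, Psmb1 and Psmc2 did not. At Psma7, an alpha subunit, 4 lists held 1 peak of 2404 to 2855 bp over the start at percentiles from 67.2 to 73.2. The Loxapine list held a peak of 1495 bp that began 78 bp downstream of the start, and the DKI list held peaks of 1046 bp at percentile 80.9 and of 283 bp at percentile 11.4. The strength of Psma7 was 93.6 with Loxapine and 72.0 in Q111SST, and 1.16% of genes were as high or higher relative to Q111SST. With the peak required to lie over the start, Psma7 was unmarked with Loxapine and DKI.

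Psmb1 had 1 peak of 3946 bp at percentile 65.5 in Q7SST, and in Q111SST 1 peak of 1920 bp over the start at percentile 82.3 and another of 1279 bp upstream at percentile 52.3. Its lower strength in Q7SST came with a wider, joined peak. Joining and strength did not go together over the other lists. With DKI a joined peak of 2926 bp stood at percentile 75.3, and with Meclizine the stronger of separate peaks stood at 74.5. With Cyproheptadine the strongest peak was one of 222 bp upstream, at percentile 79.1. Psmc2 differed from Psmb1 in Q7SST, since its wider peak was the stronger. Its peak was 4168 bp wide at percentile 79.0 with Loxapine and 1517 bp wide at percentile 67.6 in Q111SST. With peaks within 1 kb merged and the highest score kept, Psmc2 stood at 82.1 in Q111SST and 78.9 with Loxapine, while Psmb1 stood at 65.3 in Q7SST and 82.1 in Q111SST, next to 65.5 and 82.3 before merging.

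**Figure D3:**
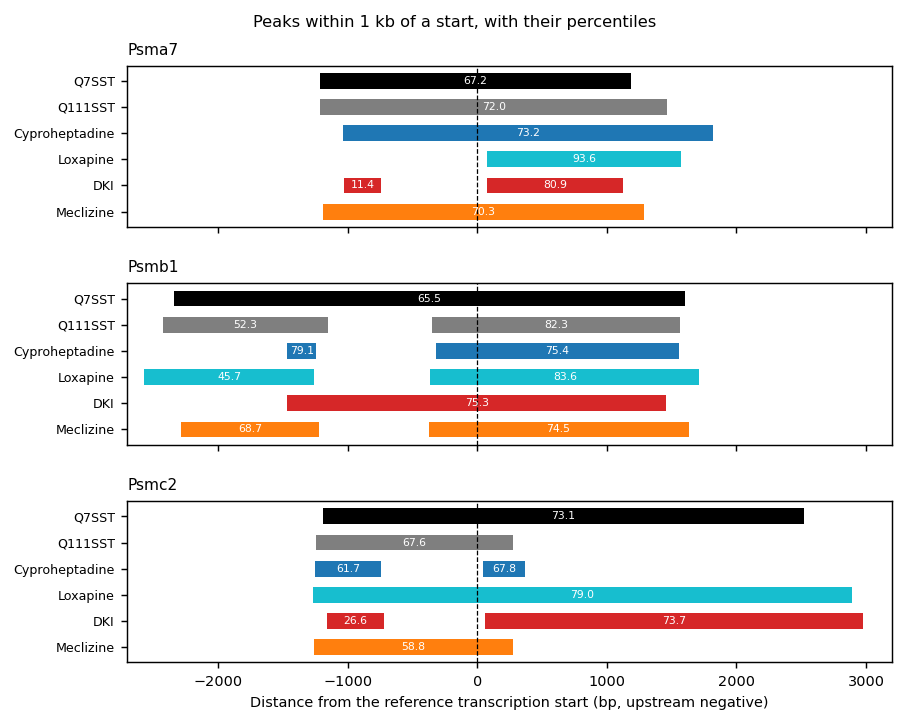
Peaks within 1 kb of an annotated start of Psma7, Psmb1 and Psmc2 in the 6 lists, by distance in bp from the reference start (x axis, dashed line at the start). The number in each bar is the percentile of the peak in its list. The Psma7 peak with Loxapine (93.6) begins downstream of the start, where the other lists except DKI have a wide peak over it.

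The median width of the strongest peak at a proteasome gene was 1822 bp over the lists, and 1730 bp at all genes marked in the 6 lists. By list it ran from 1588 bp with DKI to 1999 bp with Loxapine. Alpha ring genes had wide peaks with a median of 2278 bp, and beta ring genes narrower ones with 1529 bp. The genes overlapped, from 1737 to 2691 bp in the alpha ring and from 1416.5 to 2042 bp in the beta ring. With Loxapine the medians of the rings were 1943 and 1908 bp, and in every other list the alpha ring was clearly the wider. By the median of a gene over the lists, Psme4 was the widest at 2716 bp and Psmc4 the narrowest at 859 bp. Single peaks ran from 222 bp with Cyproheptadine to 4168 bp with Loxapine. The Spearman correlation of width with strength across the 47 genes lay between -0.17 and 0.14 in the 6 lists, which describes genes of the same libraries. In Q111SST the median peak reached 592 bp upstream and 1269 bp downstream of the reference start, close to the 572 and 1185 bp of all marked genes, and 40 of 47 reached farther downstream than upstream.

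By the annotation, the Q111SST peak covered the reference start of 46 genes and the whole of exon 1 of 45, and it touched a UTR in 46 and an intron in 46. For 32 genes no exon beyond the first was touched. Shares over all genes are not given for these counts or for the count reaching farther downstream, so they only describe the proteasome genes. The Psmb10 peak, chr8:105936706-105938594, was the longest by exons and reached exon 6 of 8, and the Psmb4 peak reached exon 4 of 7. The Psma3 peak, chr12:70974749-70976438, lay in exon 1 and intron sequence and began downstream of the start. The Psmb8 peak, chr17:34197295-34198474, ended inside exon 1.

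**Figure D4:**
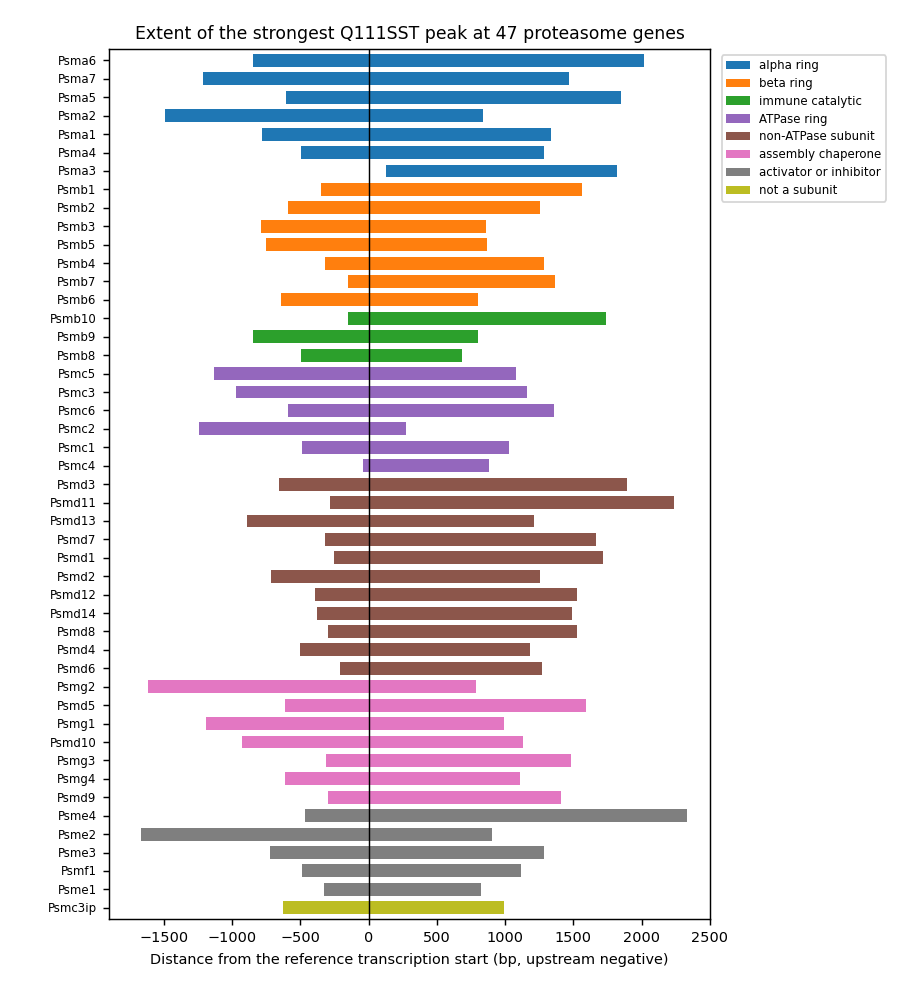
Extent of the strongest Q111SST peak at each of the 47 marked proteasome genes, by distance in bp from the reference start (x axis, upstream negative), coloured by role. The bars reach farther downstream than upstream at 40 of 47 genes, and the bar of Psma3 begins downstream of the start.

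Part of the marked DNA is shared with other genes. A gene of the opposite strand began within 1 kb of 11 of the 47 marked proteasome genes, 23.4%, and of 17.3% of all marked genes. These pairs were Psma2 with Mrpl32, Psma4 with AY074887, Psma7 with Ss18l1, Psmb1 with Tbp, Psmb9 with Tap1, Psmc2 with Dnajc2, Psmc5 with Ftsj3, Psmd10 with Atg4a, Psmd13 with Sirt3, Psme2 with Rnf31 and Psmg2 with Cep76. In 8 of the pairs a start of the partner lay under the strongest peak of the proteasome gene in all 6 lists. Those of Ss18l1 and Dnajc2 did in 4 lists, and that of Tbp in 1. Tap1, which carries peptides made by the proteasome to MHC class I, starts 38 bp from Psmb9, so the mark of Psmb9 is also that of Tap1. Psmg3 shared its peak with Gm26938. In Q111SST the genes with a partner had a median strength of 83.7 and the other 36 of 89.6, whereas over all marked genes the medians were 85.2 and 81.6.

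RefSeq promoters were found for 42 of the 50 genes, and none was used for Psma8, Psmb1, Psmb2, Psmb7, Psmc3, Psmd3, Psmd7 and Psmg2. The ratio of observed to expected CpG dinucleotides had a median of 0.772 over the 40 marked genes, near the 0.811 of genes marked in all lists. It was 0.165 in Psmb11 and 0.0904 in Psme2b, while genes marked in no list had a median of 0.204 and a lower quartile of 0.100. Psmb10 stood apart from this pattern, with a ratio of 0.192 and a median strength of 92.7. Of the 9022 genes marked in all lists that had a RefSeq promoter, 1.80% had a ratio as low or lower, with a median strength of 73.9, and 16.7% of these were as strong as Psmb10 or stronger. Its strongest peak covered 78 to 252 of the 300 printed bases, and the bulk of that peak lay downstream. The printed starts of Psmb8 and Psmb9 lie 405 and 434 bp from the GENCODE reference starts. Across the 40 marked genes the Spearman correlation of CpG ratio and strength was -0.16, and across 9022 genes marked in all lists 0.08.

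**Figure D5:**
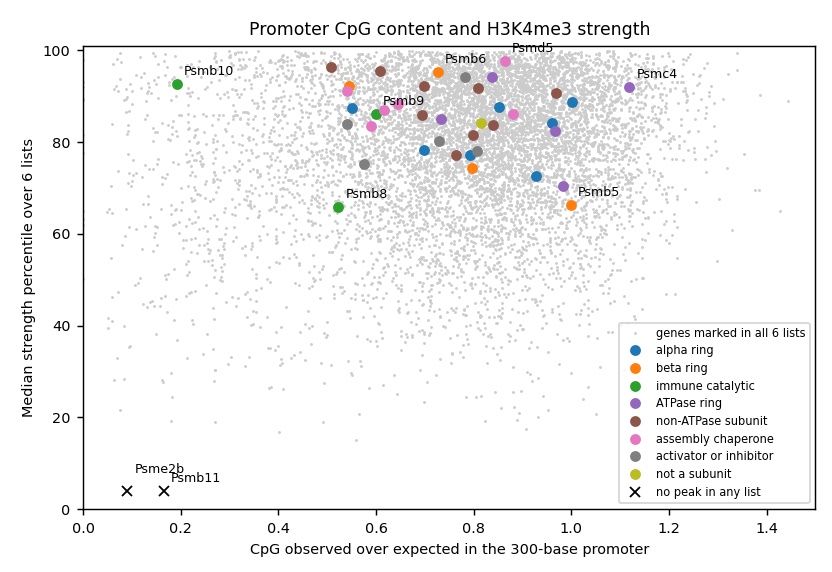
Median strength over the 6 lists (y axis, percentile) against the observed over expected CpG ratio of the promoter (x axis). Grey points are genes marked in all 6 lists, coloured points are proteasome genes by role, and crosses at the foot are genes without a peak. Psmb10 has a ratio of 0.192 and a strength of 92.7, while Psmb11 and Psme2b have ratios of 0.165 and 0.0904 and no peak.

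The motifs were set beside all 16522 promoters. The ETS core CCGGAAG was in 15 of 42, 35.7%, against 13.4% of all promoters and 21.6% of those of genes marked in all lists. The interferon-stimulated core GAAANNGAA was in 7, 16.7% against 9.58%. The latter were Psmb3, Psmb4, Psmc2, Psmd4, Psmd9, Psme1 and Psmg4, and none of the printed windows of Psmb8, Psmb9 and Psmb10 held this motif. TGACNNNGC was in 6, 14.3% against 15.02%, namely Psmb5, Psmb6, Psmc6, Psmd9, Psmd12 and Psme4. CCAAT was in 15, 35.7% against 42.1%, TATAAA in 4, 9.52% against 14.3%, and the NRF1 motif in 3, 7.14% against 4.11%. Among promoters of genes marked in all lists the shares were 8.28% for GAAANNGAA, 16.9% for TGACNNNGC and 44.2% for CCAAT. They were 6.54% for the NRF1 motif and 8.25% for TATAAA, so that the TATAAA share of the proteasome genes lay below that of all promoters and above that of the marked ones. A match describes the letters only.

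The pathway was followed in 27 other genes, of which 26 were in the annotation. They included the subunits Adrm1 and Sem1, the deubiquitinases Uchl5 and Usp14, the maturation factor Pomp, the transcription factors Nfe2l1 and Nfe2l2, ubiquitin genes, shuttle factors and ligases. All 26 were marked in all 6 lists, with a median strength of 88.5 from 63.0 for Uba1 to 97.5 for Zfand5. Nfe2l1, which drives proteasome gene transcription when the proteasome is inhibited, stood at 80.1 in Q7SST and 77.3 in Q111SST, and 83.9, 84.6, 72.0 and 75.5 with Cyproheptadine, Loxapine, DKI and Meclizine. Nfe2l2, a regulator of the oxidative stress response, stood at 94.5, 94.5, 98.7, 98.1, 99.6 and 96.9. Relative to Q111SST, 0 of the 26 were higher and 2 lower in Q7SST, 1 and 3 with Cyproheptadine, 2 and 0 with Loxapine, 1 and 4 with DKI, and 0 and 2 with Meclizine. The lower genes were 7.69%, 11.5%, 0%, 15.4% and 7.69% of the 26, next to 12.9%, 26.1%, 9.59%, 39.1% and 10.1% of all genes, and the higher genes 0%, 3.85%, 7.69%, 3.85% and 0%, next to 8.68%, 3.46%, 6.81%, 3.51% and 4.07%. Ngly1, which processes the NFE2L1 protein, was the farthest out, at 72.4 in Q111SST and 24.997 with DKI.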

How the data were processed

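H3K4me3 ChIP-Seq peak lists of STHdh cells were used, 1 per condition, 6 in all. Per the submitters' processing notes, reads were handled with Trimmomatic 0.36, Bowtie2, SAMtools 1.3 and MACS2 on build mm10 (GRCm38). Each deposited line gave a position and a whole-number score made by the authors, with a minimum of 10 in every list. The scale of the score, the thresholds, any input control and any pooling of replicates are not given in the sources used here. Peak ends were checked against GRCm38 lengths, and 0 lay past a chromosome's end over 21 chromosomes.

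Groups came from the sample labels. The genes were the protein-coding genes of GENCODE M21 (basic set, without the mitochondrial chromosome), with all annotated starts. The highest-scoring peak within 1 kb of a start was given its midrank percentile among the peaks of its list, since scores were not comparable between lists. Widths are those of that peak. Changes were called at 10 points. The reference start is that of the principal transcript. Promoters came from RefSeq (GRCm38.p6), and where a gene had several, the ratio is the highest and a motif counts if any holds it. All proteasome genes, a list of other pathway genes, partners with a start within 1 kb on the opposite strand and marker lists were named by rule, and promoters were printed for genes marked in only some lists (there were none), the immune catalytic genes and the strongest gene. The members and lists were chosen with earlier results of these data known. Of the marker genes, 1 is not reported here. With no replicates no test was made. Alternatives were a threshold at the pooled median score, lists of equal size, windows of 0 and 5 kb, merged peaks, ranking among promoters and a change of 20 points. Scripts were tested on simulated data. The tools were matplotlib 3.10.9, pandas 2.3.3, numpy 2.4.6 and scipy 1.17.1 under Python 3.11.15.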

Additional observations from a re-analysis of the deposited data

How the results depend on the processing

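No paired analysis was possible because there was 1 list per condition. The number of marked proteasome genes stayed at 47 in every list under a stricter score threshold, lists of equal size, a 5 kb window and merged peaks. With a peak over the start it was 45 in Q7SST and 41 with DKI, the genes lost relative to Q111SST were 1 in Q7SST, 2 with Cyproheptadine, 1 with Loxapine and 5 with DKI, and 1 was gained with Meclizine (0 in each case at 1 kb). Of all genes marked in Q111SST 5.93%, 14.4%, 8.97% and 10.7% were then lost in these lists, and of those unmarked there 4.82% were gained with Meclizine.

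A threshold at the pooled median score of 47 removes the weaker peaks and by construction lowers percentiles. Medians were then 74.5 in Q7SST and 75.4 in Q111SST, and 65.4, 76.7, 61.5 and 73.5 with Cyproheptadine, Loxapine, DKI and Meclizine. Genes higher and lower than Q111SST were 6 and 7 in Q7SST, 3 and 25 with Cyproheptadine, 6 and 8 with Loxapine, 4 and 31 with DKI, and 8 and 6 with Meclizine. In the same order, 20.6%, 8.60%, 20.1%, 9.98% and 18.2% of all genes were higher and 17.2%, 44.7%, 16.6%, 47.4% and 10.8% lower.

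With the strongest 30758 peaks of each list, medians moved to 83.1 in Q7SST, 83.0 with Loxapine and 81.5 with Meclizine. Genes higher were 2 with Cyproheptadine, 5 with DKI and 2 with Meclizine, and genes lower were 4 in Q7SST, 4 with Cyproheptadine, 8 with Loxapine and 11 with DKI. All genes were higher in 9.95%, 11.05% and 6.47%, and lower in 14.4%, 17.3%, 22.5% and 21.7%. Ranked among promoters marked in all lists, medians were 61.1 in Q7SST and 62.8 in Q111SST, and 60.6, 61.8, 57.6 and 58.5 with Cyproheptadine, Loxapine, DKI and Meclizine. Genes higher were then 7, 9, 8, 7 and 9, and genes lower 11, 14, 12, 15 and 14, in Q7SST, Cyproheptadine, Loxapine, DKI and Meclizine. Higher genes with Loxapine numbered 1 with a peak over the start, 1 with a 5 kb window and 1 with merged peaks, beside 4.32%, 8.31% and 6.90% of all genes. At 20 points 1 gene was higher with Loxapine and 0 with DKI, and the genes lower numbered 4 with DKI, 1 with Cyproheptadine and 0 in Q7SST, with Loxapine and with Meclizine. Of all genes 1.49% and 0.773% were then higher with Loxapine and DKI, and 15.2%, 7.81%, 3.72%, 2.28% and 1.55% lower in the order given. Counts of higher and lower genes thus depended on the scale and the threshold. Psme1 was highest in Q111SST and lowest with DKI, and Psme2 highest with DKI, under every alternative. Of the 33 single calls of higher or lower genes, 8 fell short of 10 points with lists of equal size, that of Psmc2 with Loxapine changed direction (-3.27 points at 5 kb, -3.24 with merged peaks), and those of Psma3 with DKI and Meclizine ended at 5 kb (-3.21 and -0.86 points). Ranked among promoters, Psmb3 with Cyproheptadine and Psmb5 with DKI fell short (-5.28 and -9.32 points). With a peak over the start 4 had no value, namely Psma7 with Loxapine, Psmd11 with DKI and both of Psma3. The depth of each library is unknown, and a shallower library can give a shorter list.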
